A study of Drosophila melanogaster with 8 samples.

Results

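Proteins that build insulators and housekeeping promoters are encoded by the genes Dref, BEAF-32, M1BP, CTCF, su(Hw), pita, ZIPIC, Cp190 and mod(mdg4), and these 9 of 13945 protein-coding genes on the chromosome arms are described here. The genes were listed by name for their known function, and the peaks assigned to them were chosen by the position of their summits in the peak lists. A peak belonged to a gene when its summit, the position of highest pileup, fell between 3000 bp before and 3000 bp after the gene, and it was a promoter peak when the summit lay within 1000 bp of an annotated transcript start of that gene. Chromatin from whole heads of Drosophila melanogaster adults aged 1 to 3 days was immunoprecipitated (IP) with an antibody against FLAG. The tagged line, 3xFLAG-Da, carries a FLAG tag on Daughterless (Da), the only E-protein of the fly, a basic helix-loop-helix transcription factor that binds E-boxes of the sequence CANNTG. Control flies, white*, lack any FLAG sequence, so their peaks measure what the antibody and the procedure give without tagged protein. There were 2 IP libraries of each line, each with its own input, and 1 deposited peak list per IP library. A whole head holds neurons, glia, eye, muscle and fat cells, which these lists do not separate.

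Insulators are stretches of DNA that keep an enhancer from acting on a neighbouring promoter and that mark borders between chromosome domains. In flies, DNA-binding zinc finger proteins such as CTCF and Su(Hw) sit on these sites and recruit the cofactors Cp190 and Mod(mdg4), which carry BTB domains. Other factors bind at the promoters of genes used in every cell. Dref binds the DNA replication-related element (DRE, TATCGATA), and M1BP binds the core promoter element called motif 1, which holds GGTCACAC.

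DNA at these promoters is shown for 6 of the genes. Dref, CTCF, mod(mdg4) and Cp190 show a DRE or its core or an E-box near a summit or a start. M1BP, in 3xFLAG-Da replicate 1, and su(Hw) show summits of low GC content. All stretches are from Release 6 of the genome and run 5′ to 3′ on the minus strand, which is the strand of each of these genes. Capitals mark E-boxes, CGATA or TATCG (the DRE core), and GGTCACAC. The whole gap between the starts of Dref and RpL13 is at 2L:9967230-9967312, the 100 bp before the start of CTCF at 3L:7356714-7356813, and an E-box at the CTCF summit at 3L:7356662-7356691. For mod(mdg4) the sequence around the promoter summit of 3xFLAG-Da replicate 1 is at 3R:21377419-21377519, and for Cp190 that of replicate 2 is at 3R:15275247-15275347. The sequence around the M1BP summit of 3xFLAG-Da replicate 1 is at 3R:8731869-8731969, and that around the su(Hw) summit of Control replicate 1 at 3R:14308909-14309009.
Dref to RpL13: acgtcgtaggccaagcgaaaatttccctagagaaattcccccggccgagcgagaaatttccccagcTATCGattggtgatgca
CTCF upstream: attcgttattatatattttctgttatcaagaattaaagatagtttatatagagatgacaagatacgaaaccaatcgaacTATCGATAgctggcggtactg
CTCF E-box: attagaaatgggCAGCTGtttCATGTGgac
mod(mdg4) promoter summit: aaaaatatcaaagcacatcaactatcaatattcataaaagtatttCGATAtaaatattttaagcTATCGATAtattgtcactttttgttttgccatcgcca
Cp190 promoter summit: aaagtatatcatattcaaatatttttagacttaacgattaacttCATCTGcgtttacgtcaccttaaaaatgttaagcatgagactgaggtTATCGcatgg
M1BP promoter summit: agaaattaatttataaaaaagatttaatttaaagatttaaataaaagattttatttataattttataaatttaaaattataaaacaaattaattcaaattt
su(Hw) Control summit: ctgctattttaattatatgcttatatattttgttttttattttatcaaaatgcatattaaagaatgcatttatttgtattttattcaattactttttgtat
The upstream stretch of CTCF holds a complete DRE near its end, and the E-box beside its summit is CAGCTG followed by CATGTG. The M1BP stretch is almost purely A and T, the su(Hw) stretch is less extreme, and neither holds any of the marked elements.

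At the 9 genes, 3xFLAG-Da replicate 1 had 23 peaks and replicate 2 had 20, on average 21.5 ± 2.12 (SD, n = 2). Control replicates 1 and 2 had 2 and 1, on average 1.5 ± 0.707 (SD, n = 2). The groups did not overlap, but the lists also differed in length, with 10915 and 8745 peaks for 3xFLAG-Da and 453 and 707 for Control. As a share of its own list, the genes took 0.211% (95% Clopper-Pearson interval 0.134 to 0.316) and 0.229% (0.140 to 0.353) of the 3xFLAG-Da peaks. In the Control lists the share was 0.442% (0.0535 to 1.59) and 0.141% (0.00358 to 0.786), so the intervals of all 4 lists overlapped. These intervals cover counting error only. Those of Control rest on 2 and 1 peaks and are wide, so the overlap is not read as equal shares.

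Coverage, in fragments per position as recovered from the peak statistics, was 9.36 and 4.17 in 3xFLAG-Da replicates 1 and 2 and 1.92 and 1.72 in Control replicates 1 and 2. At that coverage the lowest fold that could be called where background was lowest was 1.93 and 2.51 with the tag and 3.42 and 3.67 without it. A low 3xFLAG-Da peak could therefore go uncalled in Control for lack of reads. For the main 3xFLAG-Da promoter peaks below, and some others, a chance of a call at Control coverage is given. It is the chance that a peak of the same relative height would be called at the coverage of Control replicate 1. A chance of 0.95 or more is called adequate.

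A promoter peak was present at 8 of the 9 genes in 3xFLAG-Da replicate 1, where 55.7% of all protein-coding genes had one, and at 8 in replicate 2, where 44.4% did. In Control replicate 1 there were 2 genes with a promoter peak, beside 2.62% of all genes, and in Control replicate 2 there was 1, beside 4.63%. The gene of the latter was su(Hw), which had a peak in both Control lists, as did 1.86% of all genes, and either Control list reached 2 of the 9 genes and 5.39% of all. Within 3000 bp of the gene, 9 and 8 genes had a peak in 3xFLAG-Da replicates 1 and 2, beside 71.6% and 62.1% of all genes, and 2 and 1 in Control replicates 1 and 2, beside 6.08% and 9.01%. Because the peaks were assigned by these same positions, the counts describe the genes and are not a test. The genes were also longer than most, with a median of 3136 bp (range 1631 to 26556) against 2166 bp for all protein-coding genes.

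**Figure D1:**
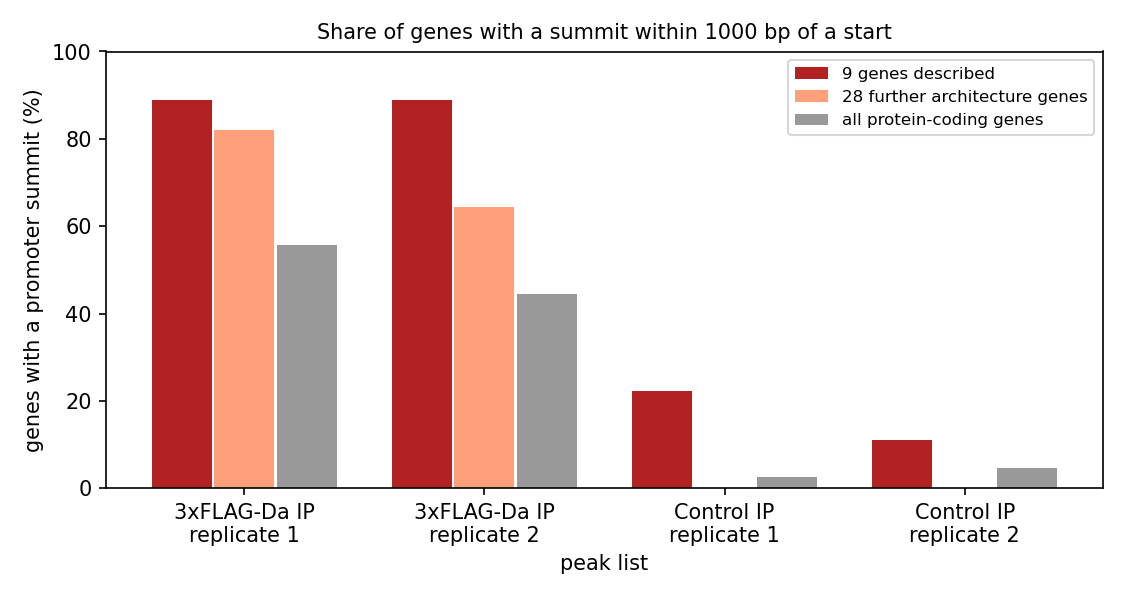
Share of genes (%) that had a promoter summit in each peak list, for the 9 genes, 28 further architecture genes and all protein-coding genes. The 9 genes stood at 88.9% in 3xFLAG-Da replicates 1 and 2, beside 55.7% and 44.4% of all protein-coding genes. In Control replicates 1 and 2 they stood at 22.2% and 11.1%, where the 28 further genes were at 0 and all protein-coding genes at 2.62% and 4.63%.

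Where peaks of both 3xFLAG-Da lists overlapped by at least 1 bp they were merged into a shared region. Of 7237 such regions in the genome, 17 lay at 8 of the 9 genes. None of the 17 overlapped a Control peak, but neither did 6649 of the 7237, so this is not read as a trait of these genes. A shared region lay in the promoter of 7 of the 9 genes, in 9 regions, beside 42.8% of all genes (5965 of 13945). Counting only regions without a Control peak kept the same 7 genes, and kept 5416 of the 5965, which is 38.8% of all genes. The exceptions were su(Hw), which had no peak in 3xFLAG-Da replicate 2, and ZIPIC, which had no promoter peak in replicate 1.

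**Figure D2:**
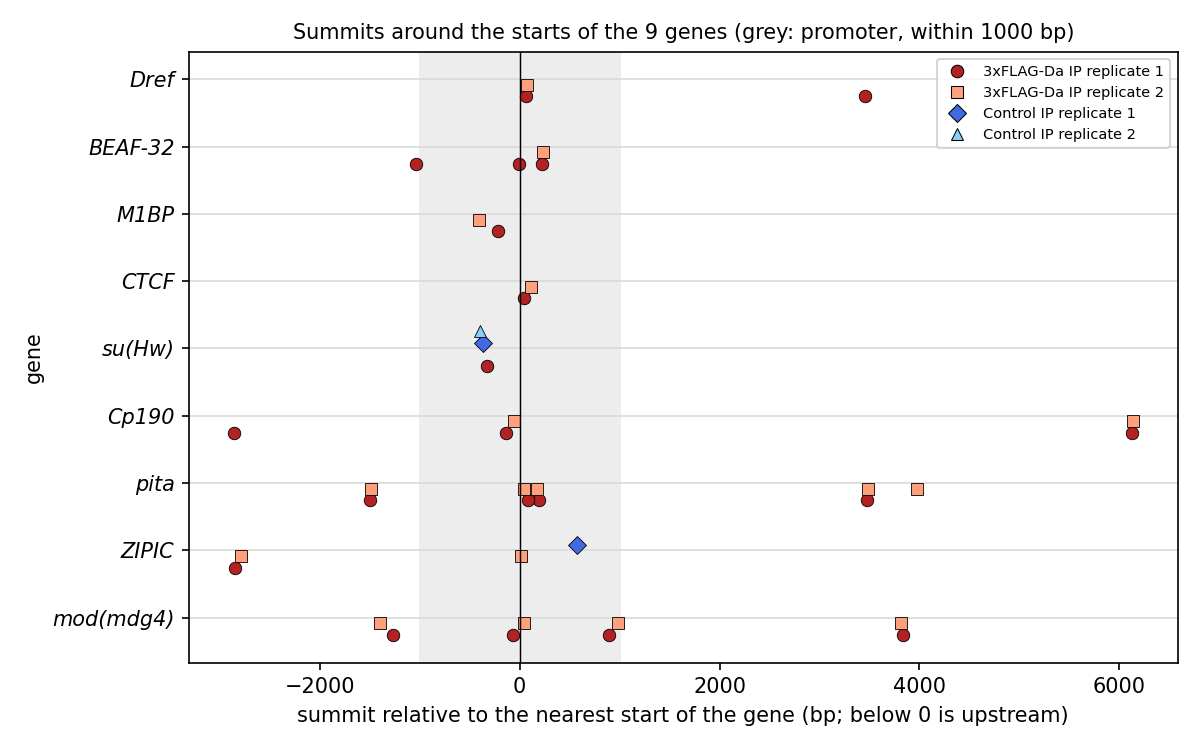
Position of each summit relative to the nearest start of its gene (bp, below 0 is upstream), 1 row per gene and 1 marker per peak of each list. Summits more than 6 kb into mod(mdg4) lie beyond the axis. The promoter summits of Dref, CTCF and Cp190 lay within 141 bp of a start in both 3xFLAG-Da lists, and blue markers occur only at su(Hw) and ZIPIC.

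The housekeeping promoter factors come first. Dref (FBgn0015664, 2L:9964147-9967229, minus strand) had a summit 64 bp inside its 5′ untranslated region in 3xFLAG-Da replicate 1 and 68 bp inside it in replicate 2. Fold enrichment, the pileup over local background with 1 added to both, was 3.67 and 4.63. These folds were above 44.7% and 47.9% of the peaks of their lists, and the summits were 4 bp apart. The pileups were 88 fragments over a background of 23.3 and 31 over 5.91. The chance of a call at Control coverage was 0.721 and 0.843, so a Control peak of this height could have been missed at this depth. RpL13, a ribosomal protein gene, starts 84 bp upstream on the other strand, and the same summits lay within 1000 bp of both starts. The gap shown above holds TATCG but no complete DRE. A weaker peak of replicate 1 alone, with a fold of 3.46, lay just past the end of the gene, near CG5850.

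M1BP (FBgn0037621, 3R:8729790-8731698, minus strand) had the highest promoter fold of the 9 genes in replicate 1. The fold was 7.26 in replicate 1 and 6.32 in replicate 2, above 87.5% and 70.0% of the peaks. The pileups were 104 over 13.5 and 39 over 5.33, and the chance of a call at Control coverage was 0.995 and 0.969. Both are adequate, and neither Control list held a peak there. M1BP is transcribed away from CG8202, whose start is 393 bp upstream. The summit of replicate 1 lay 221 bp upstream of M1BP and 172 bp upstream of CG8202, and that of replicate 2 lay 404 bp upstream of M1BP and 11 bp inside CG8202. The summits were thus 183 bp apart, where 44.0 bp was the median over all 7307 overlapping peaks. GC content within 50 bp of the summit of replicate 1 was 5.94%, the lowest of 7235 shared regions with sequence, whose median was 45.5%. No E-box lay in that window. In the 39 bp before the start of CG8202, beside the summit of replicate 2, GC content was 51.3%. That stretch is shorter and does not hold the summit itself, so it cannot be set directly against the window of replicate 1.

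BEAF-32 (FBgn0015602, 2R:14770469-14772630, plus strand), the boundary element-associated factor that binds groups of CGATA, had the weakest shared promoter region of the 9 genes. Its summits lay 225 and 235 bp downstream of the nearest of 3 starts, in coding sequence. The fold was 3.22 in replicate 1 and 3.54 in replicate 2, above only 33.8% and 22.6% of peaks, and the chance of a call at Control coverage was 0.467 and 0.613. In replicate 1 alone a peak of fold 2.14 sat 5 bp upstream of a start, with a chance of 0.0392. The E-box CAGATG was no more than 50 bp from the shared summit. A peak of fold 2.26 in replicate 1, at the start of the neighbour Spred, fell 1035 bp upstream of BEAF-32 and so just outside the promoter limit.

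Among the DNA-binding insulator proteins, CTCF (FBgn0035769, 3L:7353578-7356713, minus strand) had the promoter region with the best mean rank of the 9 genes. CTCF is the fly relative of the main vertebrate insulator protein. The fold was 6.46 in replicate 1 and 7.51 in replicate 2, above 82.1% and 79.2% of the peaks. The pileups were 102 over 14.9 and 48 over 5.52. The chance of a call at Control coverage was 0.987 and 0.997, and no Control peak was called. The summits lay 38 and 112 bp inside the 5′ untranslated region. CAGCTG in the stretch shown above was centred 1 bp from the summit of replicate 1 and 75 bp from that of replicate 2. The complete DRE lay 55 and 129 bp from the same summits, just upstream of the start.

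su(Hw) (FBgn0003567, 3R:14304455-14308589, minus strand), whose protein binds the insulator of the gypsy transposon, was the gene with the clearest Control signal. The fold was 5.92 in Control replicate 1 and 7.87 in Control replicate 2, at pileups of 20 over 2.55 and 26 over 2.43. In 3xFLAG-Da replicate 1 the fold was 5.82, at 86 over 14.0, with a chance of a call at Control coverage of 0.937. In 3xFLAG-Da replicate 2 no peak was called. The Control peaks overlapped that of 3xFLAG-Da replicate 1, and the 3 summits lay 370, 395 and 324 bp upstream of su(Hw), between it and Polr2I, a subunit gene of RNA polymerase II whose start is 500 bp away. By fold, the signal was thus as high without the tag as with it. GC content near the 3 summits was 15.8% and 23.8% in Control replicates 1 and 2 and 27.7% in 3xFLAG-Da replicate 1. Whether base composition contributes was not tested.

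ZIPIC (FBgn0039740, 3R:30035240-30036870, minus strand), a zinc finger protein that interacts with Cp190, had no promoter peak in both 3xFLAG-Da lists. In 3xFLAG-Da replicate 2 the fold was 2.63, with a summit 17 bp inside the 5′ untranslated region and above only 1.93% of the peaks. At Control coverage the chance of a call for that peak was 0.270. In Control replicate 1 a peak of fold 3.69 lay 576 bp inside the gene, in coding sequence, at a pileup of 12 over 2.52, and it overlapped no peak of another list. A shared region within reach of the gene lay at the starts of Sry-alpha and Sry-beta, 2844 and 2788 bp upstream, with folds of 5.64 and 4.60. ZIPIC and su(Hw) were the 2 genes with GGTCACAC in the promoter window. Both lacked a shared promoter region, though each had a promoter peak in 1 of the 3xFLAG-Da lists. The share of all GGTCACAC promoters with a shared region is not given here, so nothing is read from these 2 genes.

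pita (FBgn0034878, 2R:23548967-23554712, minus strand), which encodes a zinc finger protein of the bithorax complex borders, had a shared region at both of its starts. At the main start the fold was 3.91 in replicate 1 and 8.69 in replicate 2, above 50.2% and 85.6% of the peaks, with summits 87 and 42 bp inside the 5′ untranslated region. The replicates thus ranked this region far apart, where the median difference over all 4910 shared promoter regions was 11.7 points. The chance of a call at Control coverage was 0.806 and 1.000. At the second start, which lies beside the caspase gene Dcp-1, the fold was 3.38 and 4.63. The start of Dcp-1 was nearer to these summits, at 43 and 69 bp, than that of pita, at 195 and 169 bp. The strongest region within 3000 bp of pita was at the neighbours wmd and levy, past the end of the gene, with folds of 7.71 and 10.9 and ranks above 89.8% and 92.3% of peaks. The region at Rrp4, an exosome subunit gene upstream of pita, had folds of 4.01 and 5.12 and held CAGCTG.

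**Figure D3:**
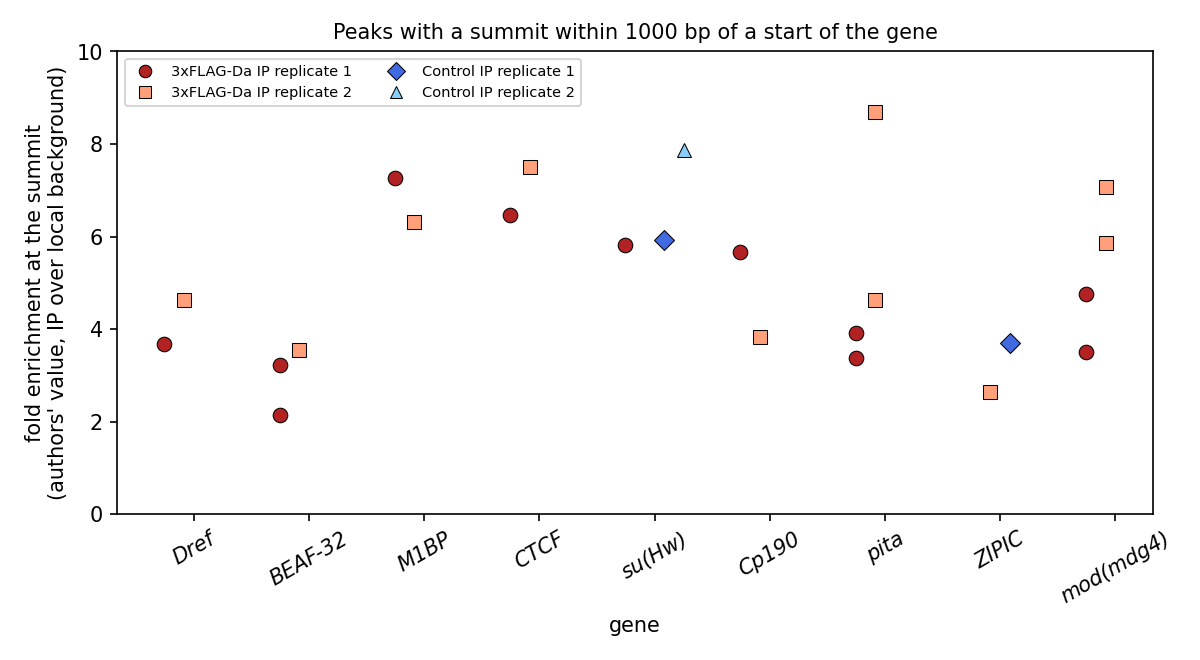
Fold enrichment at the summit of every promoter peak of the 9 genes, by gene and list, from the deposited values. At su(Hw) the Control folds of 5.92 and 7.87 lay at or above the 3xFLAG-Da fold of 5.82, and at M1BP and CTCF, with 3xFLAG-Da folds of 6.32 to 7.51, no Control peak was called.

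Cp190 (FBgn0000283, 3R:15270432-15275241, minus strand), the BTB cofactor shared by many insulator proteins, had 1 shared promoter region. The fold was 5.66 in replicate 1 and 3.83 in replicate 2, above 75.3% and 30.3% of the peaks, so the lists disagreed on its rank. The chance of a call at Control coverage was 0.980 and 0.637. The summits lay 141 and 56 bp upstream of a start of Cp190, in the space shared with CG4338, whose start is 281 bp from it. CAGATG, printed above as CATCTG on this strand, was centred 82 bp from the summit of replicate 1 and 3 bp from that of replicate 2. A second shared region lay past the end of the gene at Zip88E, with folds of 4.06 and 4.36 and CAGCTG near its summit. In replicate 1 alone a peak of fold 2.89 lay 2859 bp upstream, near MRG15.

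mod(mdg4) (FBgn0002781, 3R:21350846-21377401, minus strand) makes many protein isoforms by trans-splicing, in which a common 5′ part is joined to 3′ parts from separate transcripts. The annotation gives these as 23 pre-mod(mdg4) genes with 7 distinct starts. There were 7 peaks at the gene in each 3xFLAG-Da list, and 6 shared regions. Genes with as many peaks made up 1.91% and 1.46% of all genes in replicates 1 and 2, and with as many shared regions 1.23%, but mod(mdg4) was also the longest of the 9 genes. At the common start the fold was 4.75 and 5.87, with summits 68 bp upstream and 44 bp inside the gene, and the chance of a call at Control coverage was 0.854 and 0.952. A second region lay 896 and 983 bp into the gene, just inside the promoter limit, with folds of 3.50 and 7.07.

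The strongest region at mod(mdg4) was internal, 11957 bp from the common start, with folds of 7.29 and 7.97, above 87.7% and 82.1% of the peaks. Its summits lay 44 and 41 bp from the start of pre-mod(mdg4)-E, and the chance of a call at Control coverage was 0.998 and 0.999. A further region lay 11 and 12 bp from the common start of pre-mod(mdg4)-AA, -N and -O, with folds of 3.69 and 4.70. In replicate 1 alone a peak of fold 3.93 lay 203 and 205 bp from 2 divergent starts that serve 10 of the pre-mod(mdg4) genes. The start of the pre-mod(mdg4)-U and -V transcripts 9272 bp into the gene had no summit closer than 2685 and 2682 bp. Summits thus lay within 205 bp of 6 of the 7 internal starts in replicate 1 and of 4 in replicate 2. That limit was taken from these same distances, so the counts only describe them. No Control peak lay in or near the gene. Several of these starts crowd together and were reached by a single peak. The replicate 1 summit at pre-mod(mdg4)-E lay 154, 44 and 165 bp from separate starts. The share of all starts in the genome with a summit this near is not given here. The remaining regions were at the flanking genes tin, the heart homeobox gene tinman, with folds of 2.86 and 3.41, and aus, with folds of 4.31 and 6.29.

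**Figure D4:**
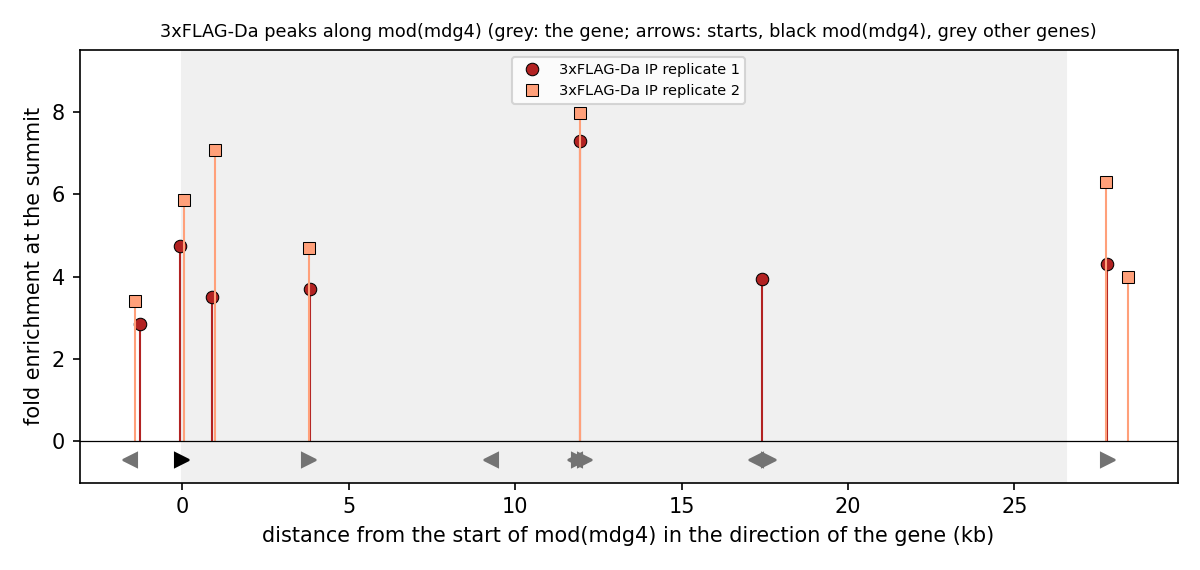
Fold enrichment of each 3xFLAG-Da peak along mod(mdg4), by distance from its start (kb, in the direction of the gene). Grey shading is the gene and arrows are transcript starts pointing in the direction of transcription. The strongest peaks inside the gene, at folds of 7.29 and 7.97, stood at internal starts about 12 kb from the common start.

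The order of the 7 genes by the mean rank of their best promoter region was CTCF, M1BP, pita, mod(mdg4), Cp190, Dref and BEAF-32. From CTCF down to mod(mdg4), and from Cp190 to Dref, each step was smaller than the median difference of 11.7 points between replicates, so the order there was not resolved. The step from mod(mdg4) to Cp190 barely passed it, and the replicates of Cp190 themselves lay further apart. The step from Dref to BEAF-32, from a mean percentile of 46.3 to 28.2, was the largest, and no test was made of it. The median fold of the 9 promoter regions was 3.91 in replicate 1, below the 5.02 of all 4910 shared promoter regions, and 5.87 in replicate 2, above their 5.40, so the replicates did not place the group on the same side. The 17 regions had medians of 4.06 and 5.12, against 4.71 and 5.14 for all 7237.

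**Figure D5:**
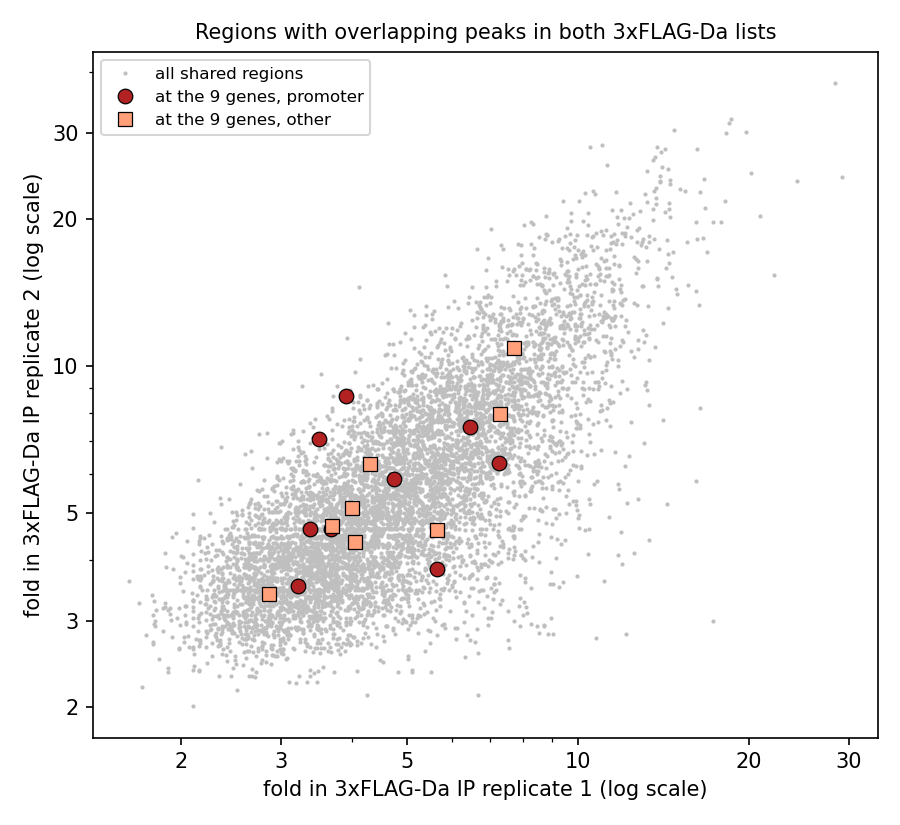
Fold in 3xFLAG-Da replicate 1 against replicate 2 for all 7237 shared regions (grey, log axes) and for the 17 regions at the 9 genes (coloured by promoter or other). The 17 regions lay inside the grey cloud, between folds of 2.86 and 7.71 in replicate 1 and 3.41 and 10.9 in replicate 2.

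Sequence was not used to choose the regions. At 4 of the 17 regions, CAGCTG or CAGGTG or CAGATG was found no more than 50 bp from the summit, against 25.8% of all shared regions. Any CANNTG was present in 7 of the 17, against 51.0%. CAGCTG was in 3 regions, against 13.8%, CAGATG in 1, against 6.20%, and CAGGTG in 0, against 7.97%. The count for the 3 words rose to 6 and 10 of the 17 when the window reached 100 and 250 bp from the summit, so it rests on the window, and the shares at these genes are not read as different from the rest. The complete DRE was within 50 bp of 0 of the 17 merged summits, against 3.22%, and GGTCACAC of 0, against 3.33%. CGATA was in 2, against 19.4%, and GAGAG, the GAGA factor word, in 2, against 15.2%.

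The promoters were then searched. In windows from 250 bp before to 50 bp after a start, searched on both strands, TATCGATA was present at 6 of the 13 starts, in 5 genes, against 7.98% of 19253 start windows in the genome. The genes were BEAF-32, CTCF, Cp190, mod(mdg4) and pita, and each of the 2 Cp190 starts had its own DRE. The core CGATA, which TATCGATA contains, was at 10 of the 13 starts, against 45.7%. GGTCACAC was at 2, against 6.72%, and GAGAG at 1, against 33.1%. CANNTG was at 9 of the 13, against 77.8%, with CAGCTG at 1 (17.9%), CAGATG at 1 (11.1%) and CAGGTG at 0 (9.65%). The DRE lay 18 bp from the summit of replicate 1 at mod(mdg4) and 94 bp from that of replicate 2. At pita the distances were 151 and 106 bp, and at BEAF-32 202 and 1274 bp. The 2 DREs of Cp190 lay 141 and 56 bp and 575 and 490 bp from the nearest summits of replicates 1 and 2. GGTCACAC of ZIPIC lay 15 bp from the summit of the weak peak in replicate 2, which is no shared region, and 2876 bp from the nearest summit of replicate 1. That of su(Hw) lay 333 bp from the summit of replicate 1. A match describes these letters and not a bound factor.

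Neighbouring genes share several of these promoters. Dref, M1BP, su(Hw) and Cp190 each have a protein-coding gene on the other strand that starts within 1000 bp upstream, as do 36.2% of all protein-coding genes. A shared promoter region was present at 67.0% of such genes and at 29.0% of the others. When a peak was counted only if the nearest start of any gene was that of the gene itself, a shared promoter region remained at Dref, BEAF-32, CTCF, pita and mod(mdg4), and not at M1BP or Cp190. At pita only the region of the main start was left.

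The further list held 28 genes of insulators, cohesin and promoter architecture. A promoter peak was present at 23 of these in 3xFLAG-Da replicate 1, beside 55.7% of all genes, and at 18 in replicate 2, beside 44.4%. Control replicates 1 and 2 each had 0, beside only 2.62% and 4.63% of all genes. Within 3000 bp of the gene, Control replicates 1 and 2 had peaks at 2 and 3 of the 28, beside 6.08% and 9.01%. The 18 genes of 3xFLAG-Da replicate 2 also had a shared promoter region, beside the 42.8% of all genes given above. Ibf1 and Ibf2, both counted, had the same region, with folds of 3.49 and 3.67. The best ranks were at fs(1)h, the BET bromodomain gene, with folds of 10.6 and 13.4, at Trf2, a TBP-related factor used at DRE promoters, with 8.77 and 11.9, and at pzg, a partner of Dref and Trf2, with 8.36 and 10.6. All 3 stood above every promoter region of the 9 genes in fold in both replicates. No promoter peak was called at dwg, Elba1, Elba2, Elba3 or insv in either 3xFLAG-Da list, and the Elba proteins form a boundary factor of the early embryo.

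Limits of the assignment matter for a few peaks. Just inside the limit of 3000 bp were the peak of fold 2.89 near MRG15 and the region at the Sry genes, and just outside it was a region 3532 and 3772 bp from Cp190, with folds of 3.95 and 5.07. CTCF had another outside at 3886 and 3885 bp, with folds of 4.95 and 8.89. Of the 7 genes with a shared promoter region, only M1BP and CTCF had an adequate chance of a call at Control coverage in both lists. Cp190 in replicate 1 (0.980), and pita and mod(mdg4) at their main starts in replicate 2 (1.000 and 0.952), were adequate in 1 list only. Dref and BEAF-32 were adequate in neither. For these 5 genes, an untagged signal of the same relative height as the lower replicate could have gone uncalled at Control depth.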

How the data were processed

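The authors trimmed 75 bp single-end reads, mapped them with Bowtie2 (2.5.1) to BDGP6, kept reads of mapping quality 20 or more without duplicates (SAMtools 1.12), and called peaks with MACS2 (2.2.7.1), 1 list per IP library with the matching input as background, at a q-value cut-off of 0.05. The deposited ratio is the fold enrichment at the summit. The authors gave significance as −log10 p and −log10 q. Their deposited score restates −log10 q and was not used. Other values in the deposited lists are summit offsets.

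Pileup and background were recovered from fold and −log10 p by inverting the Poisson test of MACS2. Whole-number pileups fitted within 0.002 for 100% of peaks, and the recovery was tested on simulated data. Gene models were from Ensembl release 115 (BDGP6.54) and sequence from the Release 6 RefSeq genome, which share coordinates with the authors' build. Promoter windows were read from that genome at Ensembl starts. A merged region took the summit of the peak with the better fold percentile. Python 3.11.15, pandas 2.3.3, numpy 2.4.6 and scipy 1.17.1 were used.

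All 9 genes were named. Of the 28 further genes, those with a Control promoter peak and the 3 best by mean fold percentile were to be named, and the genes without promoter peaks were named after their values were seen. Members and lists were chosen with earlier results of these data known, and no test was run on them. Alternatives covered promoter distance, gene extension, nearest start, q-value, overlap, summit distance, Control coverage, sequence window and each library left out.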

Additional observations from a re-analysis of the deposited data

How the results depend on the processing

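Of 54 values under alternatives, 35 stayed within 1.5 times the reported one and 19 moved further. With only peaks callable at Control coverage, 2 genes kept a shared promoter region, and 4 shared regions remained, all 4 without a Control peak. With genes not extended, the peaks were 9 and 10 in 3xFLAG-Da replicates 1 and 2 and 1 and 0 in Control replicates 1 and 2, with 9 shared regions, 9 of them without a Control peak, and 2 with an E-box of the 3 types. An extension of 1000 bp left 13 peaks in 3xFLAG-Da replicate 2 and 2 regions with such an E-box, and a window of 250 bp gave 10. Genes with a Control promoter peak fell to 1 at a promoter distance of 500 bp, 1 when the nearest start had to be that of the gene, and 1 at a −log10 q of at least 5, which also left 1 peak in Control replicate 1. Leaving out each library in turn gave 8 to 8 genes with a promoter region, 1 to 2 with a Control promoter peak (1 without Control replicate 1), 20 to 23 regions, 17 to 22 without a Control peak and 4 to 7 with an E-box (7 without 3xFLAG-Da replicate 1). No fit with the replicate number as a block was made, since these counts are descriptions and come from no test. The lists hold no reads, so depth is known only through the recovered coverage, and the shallow Control libraries limit every statement on an absent Control peak.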
